A study of Sus scrofa with 54 samples.

Results

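The genes described here encode the constitutive 26S proteasome and the UBE2 family of conjugating enzymes and their variants, measured in the ileum of young pigs. Not all UBE2 members mark proteins for the proteasome. Members were all genes whose symbol in the array annotation begins with PSMA, PSMB, PSMC, PSMD or UBE2, leaving out the interferon-induced genes PSMB8, PSMB9, PSMB10 and UBE2L6. This rule used no measured value, and it gave 55 of the 6765 genes named on the array, covered by 76 of 24057 probesets. The members divided into 31 proteasome genes (7 of the alpha ring, 7 of the beta ring, 5 ATPases and 12 non-ATPase genes of the regulatory particle) and 24 UBE2 genes. Where a gene had several probesets, as 15 members did, the brightest over all 54 arrays was used. Levels are log2 signals, so a difference of 1 is a doubling, and the level of a probeset is compared here only with that of the same probeset in other piglets.

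The proteasome breaks down proteins tagged with ubiquitin. Its 20S core is a barrel in which the outer alpha rings gate the entry and the inner beta rings carry the proteolytic sites, and its 19S cap recognises the ubiquitin chain, removes it and unfolds the substrate with a ring of ATPases. Ubiquitin reaches the substrate through an activating enzyme (E1), a conjugating enzyme (E2, the UBE2 family) and a ligase (E3), and the choice of E2 shapes which chain is built. In the gut, as in other tissues, the constitutive genes are expressed in nearly all cells, and in immune and interferon-stimulated cells 3 inducible subunits can replace the catalytic ones.

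Ileal tissue of Large White × Landrace piglets was taken at 75% of the length from the pyloric sphincter, at 5, 28 and 56 days of age, and hybridised singly to porcine arrays. OUT piglets were reared on the sow outdoors and IN piglets on the sow indoors. IR piglets came from the indoor facility, were moved into individual isolators at 24 h of age and received a daily antibiotic cocktail, and drank milk replacer in place of sow milk, so isolation, milk and antibiotics cannot be told apart in this group. Milk feeding ended at day 28 in all treatments and creep feed was given from day 29, so age and diet cannot be told apart between day 28 and day 56. Each of the 9 groups held 6 piglets. All had the same sire, and the sows of the indoor facility gave piglets to both IN and IR; the labels do not tie piglets to litters, so p-values treat litter mates as independent.

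The arrays had similar medians (3.99 to 4.22). The enterocyte genes VIL1 and FABP2 were bright in every group (means of 11.13 to 12.50 and 12.03 to 13.77), but the ileal bile acid carrier FABP6 was dim at day 5 (group means of 2.96 to 3.55), reached 8.81 to 11.07 at day 28 and 13.48 to 13.98 at day 56. OUT day 5 replicate 3 stood apart: its mean over 10 enterocyte markers was 7.09, whereas the other piglets of day 5 reached at least 11.30. For day 28 against day 5, no member's call or direction changed without it, and for the day 5 comparisons with OUT the median over the proteasome genes is given both ways. In whole tissue, fewer cells of a type and less RNA per cell cannot be told apart.

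Averaged over the 31 proteasome genes, the level per piglet was 10.20 ± 0.36 (SD, n = 6) in IR, 9.79 ± 0.14 in IN and 9.95 ± 0.20 in OUT at day 5. At day 28 it was 10.50 ± 0.13, 10.34 ± 0.44 and 10.34 ± 0.49, and at day 56 it was 10.12 ± 0.24, 10.32 ± 0.27 and 10.07 ± 0.40, in the same order of groups. The mean was thus highest at day 28 in each treatment, but single piglets of day 28 lay within the range of day 5. In IN the means of day 28 and day 56 were nearly equal, well within their SDs. The IN mean over the alpha ring genes was 11.38 at day 28 and 11.49 at day 56. The 24 UBE2 genes had a smaller spread between groups, from 7.86 ± 0.11 in IN at day 5 to 8.25 ± 0.05 in IR at day 28.

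**Figure D1:**
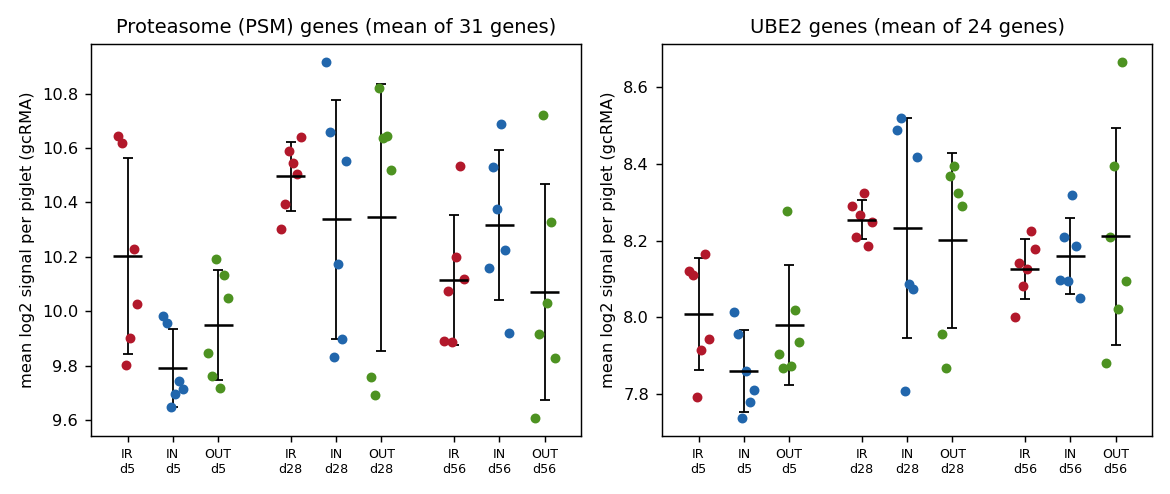
Mean log2 signal per piglet over the 31 proteasome genes (left) and the 24 UBE2 genes (right); each point is 1 piglet, the horizontal bar is the group mean and the error bar 1 SD (n = 6). At day 28 the IN and OUT piglets spread over more than 1 log2 unit for the proteasome genes, while the IR piglets lay between 10.30 and 10.64.

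Between day 5 and day 28, 35 of the 55 members rose and 1 fell in the mean of the 3 treatments (18 piglets against 18, limma, adjusted p under 0.05), and 19 did not pass. Among all probesets 42.8% passed, of which 20.2% of the total rose and 22.6% fell, and among the 2880 probesets with a mean of 9 or more, as most proteasome genes had, 31.7% rose and 15.3% fell. Of the 31 proteasome genes 24 (77.4%) rose and none fell, with a median difference of 0.43, where the median of all genes was 0.05. All 7 alpha ring genes rose, by 0.34 (PSMA7) to 0.79 (PSMA5) with a median of 0.60. Of the beta ring genes 6 of 7 rose, of the ATPases 4 of 5 and of the non-ATPase genes 7 of 12. The number of proteasome genes called was the same, 24, without OUT day 5 replicate 3.

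**Figure D2:**
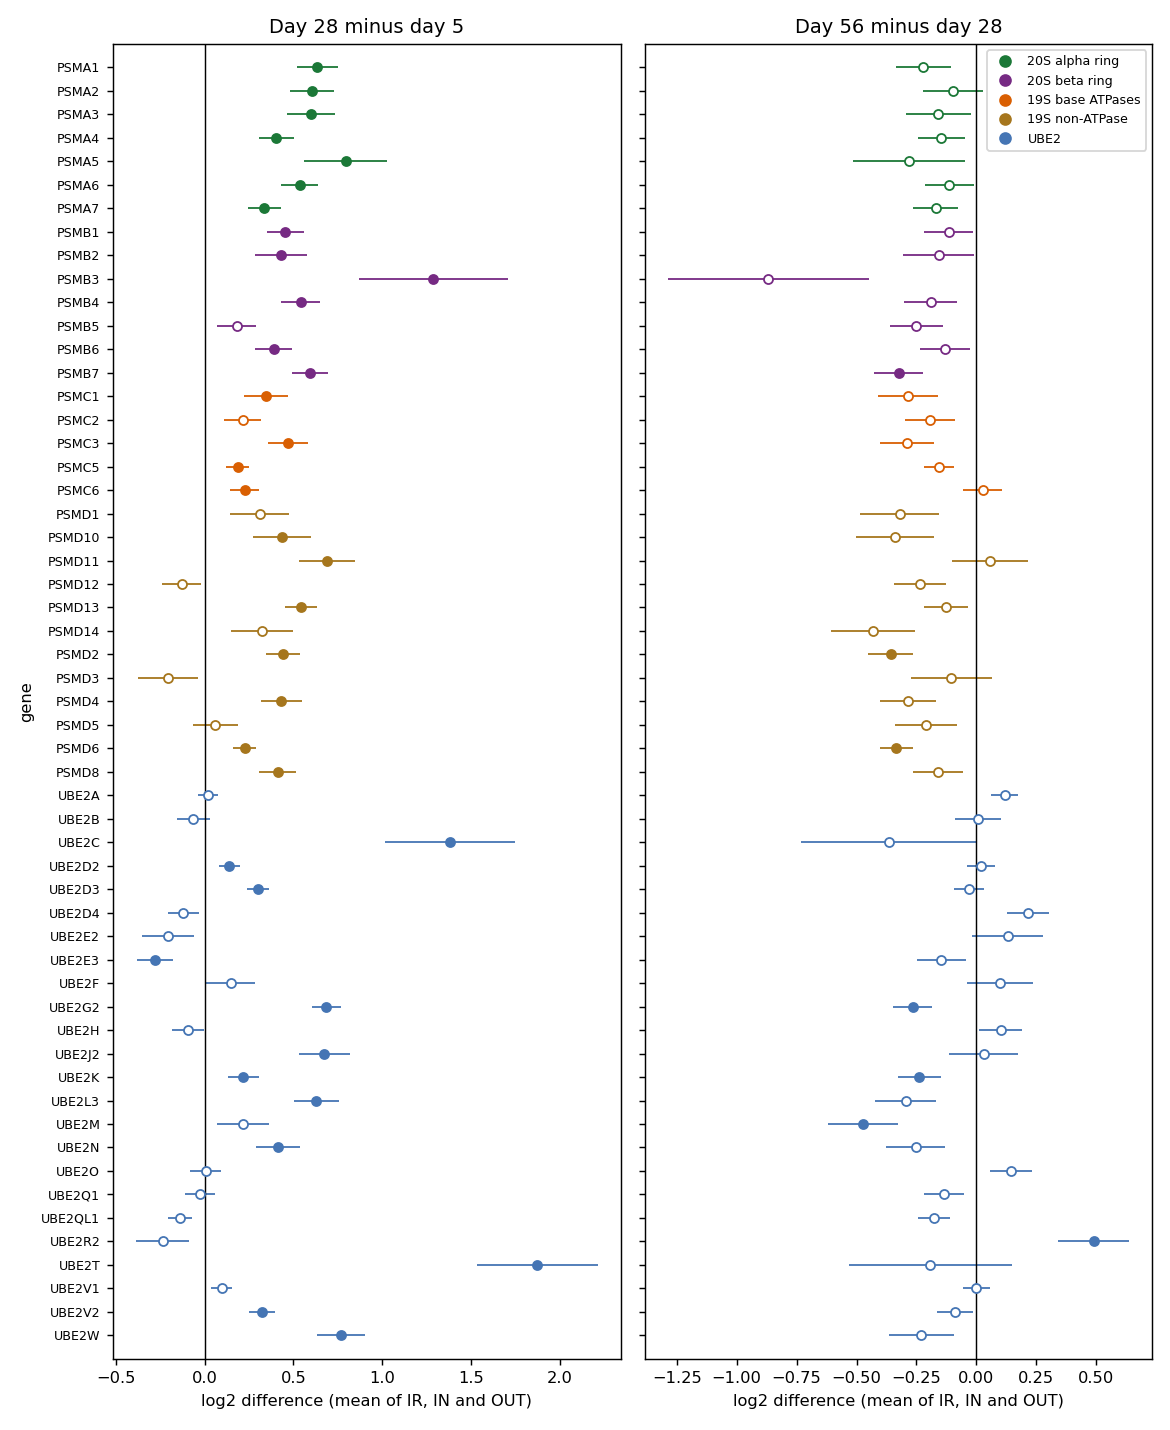
Log2 difference of each member between day 28 and day 5 (left) and between day 56 and day 28 (right), averaged over IR, IN and OUT; bars are 1 standard error of the limma fit, filled points have an adjusted p under 0.05 and colours give the role. On the left the 31 proteasome genes lie to the right of 0 apart from PSMD3 and PSMD12, and on the right 29 of them lie to the left of 0.

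PSMB5, PSMB6 and PSMB7 are the catalytic subunits of the constitutive core, with chymotrypsin-like, caspase-like and trypsin-like activity. PSMB7 at day 5 ran from 10.12 to 10.92 (median 10.50) in IR, from 9.81 to 10.50 (10.07) in IN and from 10.01 to 10.55 (10.24) in OUT. At day 28 the corresponding values were 10.83 to 11.16 (11.03), 10.23 to 11.39 (10.80) and 10.12 to 11.13 (10.95). The groups overlapped, with most piglets of day 28 above most of day 5, and the difference was 0.59 ± 0.10 (SE; adjusted p = 6.24e-06), a 1.51-fold rise. PSMB6 rose by 0.39 ± 0.10 (adjusted p = 0.00222). PSMB5 had a difference of 0.18 ± 0.11 and did not pass (adjusted p = 0.184). It was the only beta ring gene that did not pass, and its means ran from 9.92 to 10.35 at day 5, from 10.17 to 10.39 at day 28 and from 9.95 to 10.11 at day 56.

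Among the other core genes, PSMB3, a structural beta subunit, had the widest spread within groups of all members (pooled SD of 1.29). Its OUT piglets at day 28 ran from 3.01 to 9.35, with a median of 8.08. Its rise of 1.29 ± 0.42 (adjusted p = 0.0115) is accordingly the least precise of the proteasome genes. PSMA1 and PSMA2, of the gate-forming alpha ring, rose by 0.63 ± 0.11 (adjusted p = 1.5e-05) and 0.60 ± 0.12 (adjusted p = 0.000106).

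In the 19S cap the ATPase genes had a median difference of 0.22. PSMC3 rose by 0.47 ± 0.11 (adjusted p = 0.000615), PSMC5 and PSMC6 by 0.19 ± 0.06 and 0.22 ± 0.08, and PSMC2 had 0.21 ± 0.10 without passing (adjusted p = 0.0883). The probesets of PSMC2 disagree, since the others had 0.07 ± 0.10 (adjusted p = 0.607) and a rise of 0.64 ± 0.12 (adjusted p = 1.54e-05). PSMD13, a subunit of the lid, had the smallest p of the proteasome genes. Its IN piglets ran from 9.21 to 9.57 (median 9.27) at day 5 and from 9.67 to 10.71 (10.14) at day 28 with no overlap, and the difference over the 3 treatments was 0.54 ± 0.09 (adjusted p = 4.18e-06). PSMD11, a lid subunit, rose by 0.69 ± 0.16 (adjusted p = 0.000392) and PSMD4, a ubiquitin receptor, by 0.43 ± 0.12 (adjusted p = 0.00243).

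The 5 non-ATPase genes that did not pass were PSMD1, PSMD3, PSMD5, PSMD12 and PSMD14, which were named after their values were seen. PSMD3 and PSMD12, both of the lid, had differences of -0.21 ± 0.17 and -0.13 ± 0.11. PSMD14, the deubiquitinase of the lid, had 0.32 ± 0.18 and PSMD1, a scaffold of the base, 0.31 ± 0.17. PSMD5 and PSMD10 are assembly chaperones of the base rather than parts of the finished particle, and their differences were 0.06 ± 0.13 (adjusted p = 0.732) and 0.44 ± 0.16 (adjusted p = 0.0253).

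The UBE2 genes did not move as a block: 11 of 24 rose, 1 fell and 12 did not pass, with a median of 0.14. UBE2T, the E2 of the Fanconi anaemia DNA repair pathway, and UBE2C, the E2 of the anaphase-promoting complex, had the largest differences of all members. UBE2T at day 5 ran from 4.74 to 5.89 (median 5.48) in IR, from 4.38 to 5.04 (4.82) in IN and from 4.59 to 5.25 (5.02) in OUT. At day 28 it ran from 6.44 to 7.08 (6.70) in IR, from 4.60 to 9.63 (6.97) in IN and from 5.12 to 8.14 (7.47) in OUT. Every IR piglet of day 28 lay above every IR piglet of day 5, whereas some IN and OUT piglets of day 28 remained at the day 5 level. The difference was 1.87 ± 0.34 (adjusted p = 1.43e-05), a 3.66-fold rise.

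UBE2C showed the same pattern. At day 28 it ran from 8.67 to 9.22 (median 8.93) in IR, from 5.15 to 10.17 (8.36) in IN and from 6.88 to 9.70 (9.50) in OUT, against medians of 7.47, 6.83 and 7.22 at day 5. Its rise was 1.38 ± 0.37 (adjusted p = 0.00202). The second, dim UBE2C probeset (mean of 2.68) had -0.12 ± 0.08, whereas the second UBE2T probeset rose as well, by 0.99 ± 0.30 (adjusted p = 0.00615).

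UBE2G2, an E2 of endoplasmic reticulum-associated degradation, had the smallest p of all members. It ran from 6.34 to 7.21 (median 6.98) in IR, 6.38 to 7.29 (6.85) in IN and 6.76 to 7.19 (6.85) in OUT at day 5, and from 7.37 to 7.76 (7.48), 7.15 to 7.86 (7.56) and 7.51 to 7.73 (7.61) at day 28. The 2 days did not overlap in IR or in OUT, and overlapped slightly in IN. The rise was 0.69 ± 0.08 (adjusted p = 2.27e-09), with 0.67, 0.68 and 0.71 in IR, IN and OUT. UBE2J2, which acts in the same degradation pathway, rose by 0.67 ± 0.14 (adjusted p = 0.000174).

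**Figure D3:**
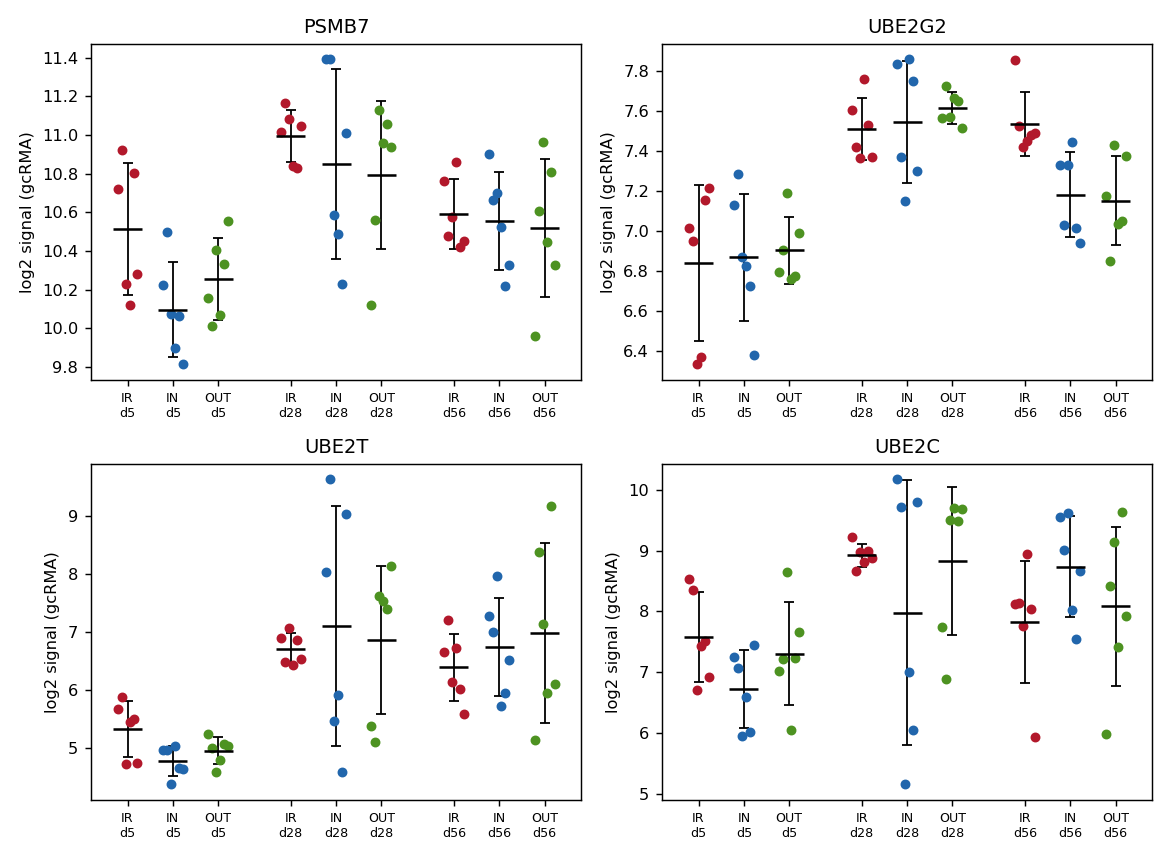
Log2 signal of PSMB7, UBE2G2, UBE2T and UBE2C in every piglet; the horizontal bar is the group mean and the error bar 1 SD (n = 6). UBE2G2 of day 28 lay above that of day 5 without overlap in IR and OUT, whereas UBE2T and UBE2C of day 28 ranged from day 5 levels to the highest values in the IN group.

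Other UBE2 genes that rose were UBE2L3, which serves HECT and RBR ligases (0.63 ± 0.13, adjusted p = 8.05e-05), and UBE2W, which attaches ubiquitin to protein N-termini (0.77 ± 0.13, adjusted p = 8.38e-06). UBE2W was dim, with values from 3.60 to 5.52 over all arrays. UBE2N, the E2 of lysine-63 chains, and its partner UBE2V2 rose by 0.41 ± 0.12 and 0.32 ± 0.08, while the brightest probeset of the other partner UBE2V1 had 0.10 ± 0.06 and did not pass, and its dimmest rose by 0.58 ± 0.14. UBE2D2 and UBE2D3, which work with many ligases, rose by 0.14 ± 0.06 and 0.30 ± 0.06. UBE2E3 fell by 0.28 ± 0.10 (adjusted p = 0.0236), and its other probesets fell by 0.65 ± 0.12 and 0.64 ± 0.11; with array medians centred the adjusted p of the brightest one was 0.115. UBE2A and UBE2B, the RAD6 homologues of DNA repair, had differences of 0.02 ± 0.06 and -0.06 ± 0.10. The second UBE2A probeset, however, rose by 0.44 ± 0.07, so the probesets of this gene disagree. Over the 15 genes with several probesets, 19 of the 21 further probesets had the sign of the brightest one, and none was called in the opposite direction. UBE2QL1 stayed below a log2 signal of 4 on every array (1.76 to 2.92), and the other 54 members reached 4 on at least 6 arrays.

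Within single treatments (6 piglets against 6), 2 proteasome genes rose between day 5 and day 28 in IR, 16 in IN and 4 in OUT, where 6.09%, 9.96% and 7.62% of all probesets rose. The corresponding medians were 0.29, 0.53 and 0.41. Of the UBE2 genes 4, 6 and 4 rose, and UBE2D4 fell in IR by 0.48 ± 0.15 (adjusted p = 0.0227), where 7.95% of probesets fell. PSMC3 had 0.14 ± 0.19 in IR, 0.87 ± 0.19 in IN (adjusted p = 0.00105) and 0.41 ± 0.19 in OUT. These differences between treatments did not pass in the test of the interaction of treatment and day, in which no member and no probeset (0%) had an adjusted p under 0.05. At an unadjusted p under 0.05, 6.41% of probesets passed and 2 members did, UBE2E2 (adjusted p = 0.759 by limma's F test) and UBE2D4 (adjusted p = 0.774), followed by PSMC3 (adjusted p = 0.782).

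Several other gene groups rose over the same interval. Of 22 proliferation genes on the array, 21 rose between day 5 and day 28 with a median of 1.24, among them CENPF (1.57 ± 0.26) and MCM3 (1.34 ± 0.23). At day 28 the 5 piglets with the lowest mean over these genes were also the 5 with the lowest mean over the proteasome genes. They were IN replicates 3, 4 and 5, with proliferation means of 5.72, 6.20 and 5.84 and proteasome means of 9.83, 10.17 and 9.90, and OUT replicates 1 and 2, with 6.45 and 5.69 and with 9.76 and 9.69. In the other piglets of day 28 the proliferation mean was at least 7.34 and the proteasome mean at least 10.30. Such sharing was not seen throughout: the 5 lowest piglets had 3 in common at day 5 and 2 at day 56, and the 2 highest at day 28 had 0 in common. The 5 highest had 3 in common at each day. The same counts were made for other lists. Unrelated rankings of 18 piglets also have some in common by chance. That level was not computed, so small counts cannot be read as a link. For interferon-induced genes the 5 lowest had 3 in common at each day, and the 5 highest 3, 2 and 4 at days 5, 28 and 56. For T cell markers, which were dim at day 5, these counts were 2, 3 and 1 among the lowest and 2, 1 and 2 among the highest. T cell markers rose as well (9 of 10, median 3.17), from means of 2.80 to 3.49 per piglet at day 5 to 3.02 to 7.41 at day 28. Of 13 interferon-induced genes 11 rose, with a median of 1.78, among them IFIT1 (3.99 ± 0.74) and TAP1 (3.08 ± 0.36). Markers of B and plasma cells rose in 3 of 4, among them the immunoglobulin joining chain JCHAIN by 6.19 ± 0.41, macrophage markers rose in 7 of 9 and endothelial markers fell in 7 of 9. The enterocyte mean per piglet was 11.30 to 12.29 at day 5, apart from the low OUT array, and 11.31 to 12.91 at day 28. Its median over the treatments was 11.51 at day 5 and 12.30 at day 28, so it was higher at day 28 although the ranges overlapped. Among these markers VIL1 (0.58 ± 0.16), FABP2 (0.71 ± 0.25), DPP4 (0.75 ± 0.18) and FABP6 rose, and CDH1 fell by 0.20 ± 0.08. APOA4, APOB, MTTP, ANPEP and EPCAM did not pass. The medians and these differences include the low OUT array. The part of these cells, of interferon and of dividing cells in the rise of the proteasome genes was not tested.

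**Figure D4:**
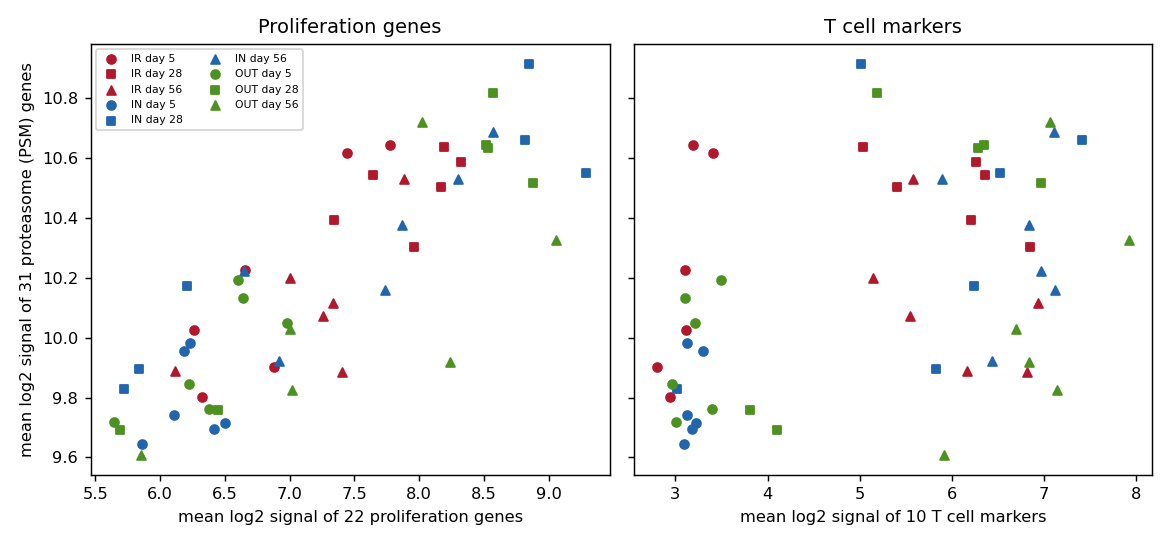
Mean log2 signal over the 31 proteasome genes of each of 54 piglets (vertical axis) against the mean over 22 proliferation genes (left) and 10 T cell markers (right); colour gives the treatment and the symbol the day. On the left, the 5 day 28 piglets with proliferation means up to 6.45 lie at 10.17 or lower on the vertical axis. On the right the day 5 piglets span 9.65 to 10.64 vertically at T cell means of 2.80 to 3.49, where that list was dim.

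Partners of the proteasome were read from lists of related genes. Of 5 activators and inhibitors 3 rose between day 5 and day 28: PSME1 (0.69 ± 0.09) and PSME2 (1.13 ± 0.20), which form the PA28 cap, and the inhibitor PSMF1 (0.86 ± 0.22), while PSME3 and PSME4 had 0.12 ± 0.19 and -0.02 ± 0.12. The immunoproteasome subunits PSMB8 and PSMB10, which replace PSMB5 and PSMB7 in the core, rose by 2.55 ± 0.29 and 1.21 ± 0.22. On the list of 5 assembly and bound factors 2 rose and 1 fell. The chaperone PSMG1 rose by 0.63 ± 0.15. SEM1, in fact a lid subunit that the symbol rule left out, rose by 0.36 ± 0.11. The bound thioredoxin TXNL1 fell by 0.21 ± 0.06.

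Of 6 E1 genes read from the array 3 rose, but all 6 belong to ubiquitin-like modifiers and none is an E1 of ubiquitin itself. Those that rose were NAE1 of the NEDD8 pathway (1.63 ± 0.14) and both subunits of the SUMO E1, SAE1 (0.94 ± 0.22) and UBA2 (0.44 ± 0.12). UBA3, the partner of NAE1, had -0.04 ± 0.10 (limma, adjusted p = 0.753). The modifiers NEDD8 and SUMO2 rose by 0.34 ± 0.10 and 0.30 ± 0.09, among 4 of 10 ubiquitin-like genes that rose and 1 that fell. Of the ubiquitin genes, RPS27A rose by 0.18 ± 0.04 and UBB had 0.03 ± 0.04. Of 5 shuttle and unfoldase genes 2 rose, NSFL1C and FAF2, whereas the p97 unfoldase VCP had -0.03 ± 0.11.

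Between day 28 and day 56, in the mean of treatments, 3 proteasome genes fell and none rose, where 23.4% of all probesets passed, 11.6% lower and 11.8% higher; among the bright probesets 11% fell and 6.81% rose. Of the 31 differences 29 were below 0 and 12 had an unadjusted p under 0.05, with a median of -0.19, and the median of all genes was -0.07. At that threshold 4258 of 24057 probesets were lower and 4078 higher. Among genes with 1 probeset each, 1579 of 6765 were lower and 792 higher, and 4107 differences were below 0. Named genes thus leaned lower as a whole. The 3 that passed were PSMD6 (-0.33 ± 0.07, adjusted p = 0.000225), PSMD2, the base subunit that docks ubiquitin shuttles (-0.36 ± 0.10, adjusted p = 0.00475) and PSMB7 (-0.32 ± 0.10, adjusted p = 0.0166). PSMD6, a lid subunit, had a median of 10.03 (highest 10.21) at day 28 and ran from 9.60 to 9.87 at day 56 in IR, without overlap. In IN it ran from 9.81 to 10.56 and from 9.69 to 10.09, and in OUT from 9.85 to 10.34 and from 9.47 to 10.25, so that both groups overlapped.

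Within single treatments no member passed in IR between day 28 and day 56 (limma), where 4.88% of probesets did, 2.72% higher and 2.17% lower. In IN PSMD6 alone fell, by 0.37 ± 0.12 (adjusted p = 0.0496), where 2.73% of probesets rose and 2.58% fell. In OUT PSMD2 fell by 0.52 ± 0.17 (adjusted p = 0.0428) together with UBE2G2, and UBE2R2 rose, where 4.33% rose and 3.33% fell. The medians of the proteasome genes were -0.34 in IR, with all 31 below 0, -0.03 in IN and -0.22 in OUT.

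The count of members that changed between day 28 and day 56 was 7 in all, and it depended on single arrays and on scaling. It rose to 14 without OUT day 56 replicate 3, to 11 and 12 without IN day 28 replicates 3 and 5, and to 12 without OUT day 28 replicate 2. The shares of all probesets without these arrays are not given. With array medians centred the count of members was 16, of which 10 were proteasome genes that fell. That setting moved the whole table, from 2846 probesets higher and 2779 lower to 2024 higher and 3881 lower; for day 28 against day 5 it changed 4856 higher and 5434 lower to 6678 and 3839.

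Of the UBE2 genes 3 fell and 1 rose by day 56. UBE2M, an E2 of NEDD8, fell by 0.47 ± 0.15 (adjusted p = 0.0145), UBE2G2 by 0.27 ± 0.08 (adjusted p = 0.0131) and UBE2K, which builds lysine-48 chains, by 0.24 ± 0.09 (adjusted p = 0.0447). UBE2R2, an E2 of cullin-RING ligases, ran in OUT from 6.16 to 7.14 (median 6.31) at day 28 and from 6.85 to 7.69 (7.16) at day 56, and in IR from 5.55 to 6.79 (6.37) and from 6.41 to 7.60 (7.09). It rose by 0.49 ± 0.15 (adjusted p = 0.0134), with 0.73 ± 0.26 in IR, 0.79 ± 0.26 in OUT and -0.05 ± 0.26 in IN; its interaction was not called (adjusted p = 0.807). UBE2A, UBE2D4, UBE2H and UBE2O had positive differences of 0.12, 0.22, 0.10 and 0.15 that did not pass. The second UBE2A probeset fell by 0.22 ± 0.07 (adjusted p = 0.0233), opposite to the brightest one. Of the 21 further probesets 14 had the sign of the brightest for these days and 4 were called; the other 3 called were lower, 1 each of PSMC2 (-0.45 ± 0.12), PSMD1 (-0.53 ± 0.17) and UBE2E3 (-0.57 ± 0.11).

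Rearing was examined at each day by comparing IR, IN and OUT. No member passed, in any of the 9 comparisons, the study's criterion (limma, p below 0.01 before adjustment together with at least a 2-fold difference) or an adjusted p under 0.05. At day 5 the criterion was met by 0.337% of all probesets for IR against OUT, 0.0499% for IN against OUT and 0.366% for IR against IN. The shares were 0.154%, 0.191% and 0.495% at day 28, and 0.283%, 0.274% and 0.287% at day 56. The adjusted p was met by 0.00831%, 0% and 0.0125% of probesets at day 5, by 0%, 0% and 0.00416% at day 28, and by 0%, 0% and 0.0166% at day 56.

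At day 5 the proteasome genes nonetheless shared an order. The mean was IR over OUT over IN for 29 of the 31 genes, and IR was above IN for all 31, with differences of 0.13 (PSMD12) to 1.10 (PSMB3) and a median of 0.40, against a median of 0.05 for all genes. At an unadjusted p under 0.05, 17 of the 31 genes were higher in IR than in IN and none lower (limma), where 4.78% of all probesets were higher and 2.86% lower. Among genes with 1 probeset each 8.75% were higher (147 of 6765 lower). Among probesets with a mean of 9 or more 8.99% were higher (68 of 2880 lower). The UBE2 genes had 3 higher and 1 lower, the dim UBE2QL1, and a median of 0.12. These are levels of genes measured on the same 12 piglets and are not independent of each other.

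The catalytic subunit PSMB5 ran from 10.18 to 10.66 (median 10.29) in IR, from 9.79 to 10.03 (9.93) in IN and from 9.72 to 10.52 (9.96) in OUT. All IR piglets were above all IN piglets, and OUT overlapped both. IR exceeded IN by 0.43 ± 0.13 (p = 0.0034, adjusted p = 0.455; exact permutation p = 0.00216, the smallest that 6 against 6 can give). IR and IN did not overlap for 3 members, PSMB5, PSMC1 and UBE2K, which were counted after their values were seen; of all probesets 0.569% were higher in IR without overlap.

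PSMD13 ran from 9.33 to 10.30 (median 9.86) in IR, from 9.21 to 9.57 (9.27) in IN and from 9.40 to 9.75 (9.53) in OUT, and 5 of 6 IR piglets exceeded all IN piglets. The difference between IR and IN was 0.53 ± 0.14 (p = 0.00159, adjusted p = 0.349; exact permutation p = 0.00649). PSMC3 had 0.63 ± 0.18 (p = 0.00274, adjusted p = 0.431; exact permutation p = 0.0195). UBE2D4, a relative of UBE2D2 that was dim here, was at 4.65 ± 0.27 in IR, 4.14 ± 0.24 in IN and 4.23 ± 0.15 in OUT, with differences of 0.52 ± 0.13 from IN (adjusted p = 0.319) and 0.42 ± 0.13 from OUT (adjusted p = 0.745).

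A pair of IR piglets had the highest proteasome means at day 5. IR replicates 1 and 2 had means of 10.64 and 10.62 over the proteasome genes, against 9.80 to 10.23 in the other IR piglets, and held the highest IR value for 12 and 17 of the 31 genes. They also had the highest means of the 18 piglets over 13 interferon-induced genes (10.47 and 10.73, where the other IR piglets had at most 7.68) and over the proliferation genes (7.78 and 7.44). Their means over the T cell markers, 3.19 and 3.41, were within the range of the other piglets of day 5. Over the enterocyte markers replicate 1 had 11.69, within that range, and replicate 2 had 12.29, above all others (at most 11.73). Without both piglets the median difference between IR and IN was 0.18, with 3 of 31 genes at an unadjusted p under 0.05, although all 31 stayed above 0. The pair was singled out for its high proteasome means and all IN piglets were kept, so leaving it out had to lower the difference. Where the difference lies cannot be read from this. The share of all probesets without these piglets is not given. Among the IN piglets of day 5, replicates 1 and 2 were likewise the highest in the proteasome mean (9.98 and 9.96, the others at most 9.74) and in the interferon mean (7.74 and 8.07, the others at most 6.93). They held the highest IN value for 8 and 19 of the 31 genes, and their proliferation means of 6.23 and 6.19 were within the range of the other IN piglets. The part of interferon and of dividing cells in this order was not tested.

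Against OUT, the IR piglets of day 5 had 30 of 31 proteasome genes higher with a median of 0.28, and 3 with an unadjusted p under 0.05, where 3.45% of probesets were higher and 2.81% lower. Among genes with 1 probeset each 5.25% were higher (194 of 6765 lower). Of the UBE2 genes UBE2D4 alone was higher. PSMA7 had the smallest p of the proteasome genes, with 0.31 ± 0.12 (adjusted p = 0.78). Without IR replicates 1 and 2, the pair singled out for high means, the median was 0.04 and 20 of 31 were above 0. Without OUT replicate 3, the array low in enterocyte signal, it was 0.32 and 7 genes had an unadjusted p under 0.05. The shares of probesets in this paragraph are for all arrays, and none is given for the counts on fewer arrays. IN was below OUT for 30 of 31 genes, with a median of -0.14 (-0.11 without OUT replicate 3, with 1 gene lower at an unadjusted p under 0.05) and, with all arrays, no gene at an unadjusted p under 0.05, where 2.42% of probesets were higher and 1.56% lower. Of the UBE2 genes 1 was lower, UBE2K, at 8.50 ± 0.23 in IN and 8.79 ± 0.20 in OUT (-0.29 ± 0.12, adjusted p = 0.874).

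**Figure D5:**
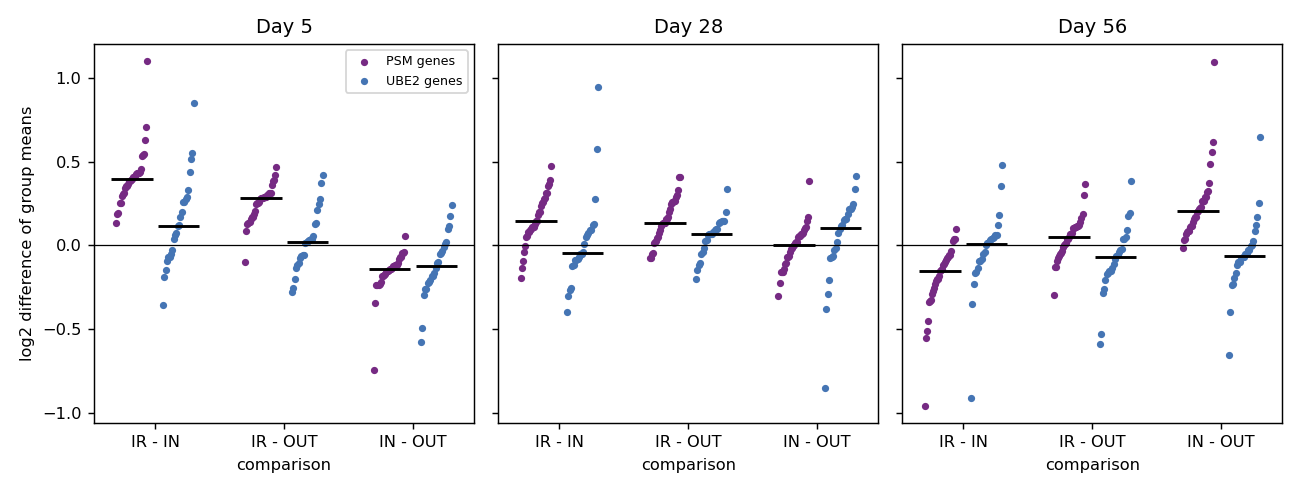
Log2 differences between treatments at each day for the 31 proteasome genes (purple) and the 24 UBE2 genes (blue); each point is 1 gene and the bar is the median. At day 5 all proteasome genes lie above 0 for IR against IN (median 0.40), and at day 28 and day 56 the medians lie between -0.15 and 0.21.

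At day 28 the proteasome genes had medians of 0.14 for IR against OUT, 0.00 for IN against OUT and 0.14 for IR against IN, and 27, 16 and 26 of 31 genes above 0. These medians depended on single arrays. Leaving out 1 array gave 0.02 (OUT replicate 1) to 0.24 (OUT replicate 3) for IR against OUT, -0.12 (OUT replicate 1) to 0.11 (IN replicate 3) for IN against OUT, and 0.07 (IN replicate 3) to 0.29 (IN replicate 1) for IR against IN. At an unadjusted p under 0.05 no proteasome gene passed for IR against OUT (limma; 1.48% of probesets were higher and 1.11% lower) or for IR against IN (3.67% and 3.06%), and PSMD4 alone passed for IN against OUT (2.47% and 2.52%). PSMD4 ran from 9.98 to 10.83 (median 10.63) in IN and from 9.76 to 10.60 (10.22) in OUT, with overlap, and the difference was 0.38 ± 0.15 (adjusted p = 0.978; exact permutation p = 0.0563). UBE2H had 0.34 ± 0.14 in the same comparison (adjusted p = 0.978), and UBE2L3 had 0.58 ± 0.26 for IR against IN (adjusted p = 0.719). The 5 piglets with low proteasome means were all IN or OUT, and the SD of the mean over the genes was 0.13 in IR and 0.44 and 0.49 in IN and OUT.

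At day 56 the median of the proteasome genes was 0.05 for IR against OUT, 0.21 for IN against OUT and -0.15 for IR against IN. Leaving out 1 array gave -0.07 (OUT replicate 1) to 0.17 (OUT replicate 3), 0.14 (OUT replicate 1) to 0.31 (OUT replicate 3), and -0.24 (IN replicate 6) to -0.09 (IN replicate 4), so the first has no stable sign. IN was above OUT for 30 of 31 genes and IR above IN for 4, and no proteasome gene had an unadjusted p under 0.05 in any of the 3 comparisons (limma). The shares of all probesets higher and lower at that threshold were 3.45% and 3.72% for IR against OUT, 3.8% and 4.02% for IN against OUT, and 3.16% and 3.02% for IR against IN. PSMD14 had the smallest p of the proteasome genes for IN against OUT, with 0.56 ± 0.31 (adjusted p = 0.679). The proteasome mean was high in OUT replicate 3 (10.72), which held the highest OUT value for 26 of 31 genes, and the other OUT piglets lay between 9.61 and 10.33. Without it 9 of 31 genes were higher in IN than in OUT at an unadjusted p under 0.05. This array was singled out for its high mean, and the share of all probesets without it is not given. The count therefore cannot be read as particular to these genes.

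Among the UBE2 genes, UBE2G2 was the member nearest to a treatment difference at day 56. It ran from 7.42 to 7.86 (median 7.49) in IR, from 6.94 to 7.45 (7.18) in IN and from 6.85 to 7.43 (7.11) in OUT, so the IR range overlapped the others only at its lower end. IR exceeded OUT by 0.38 ± 0.12 (p = 0.00505, adjusted p = 0.655; exact permutation p = 0.00433) and IN by 0.35 ± 0.12 (p = 0.00855, adjusted p = 0.74; exact permutation p = 0.00433). Between day 28 and day 56 its difference was 0.03 ± 0.14 in IR, while in OUT it fell by 0.46 ± 0.14 (limma, adjusted p = 0.032). The interaction of this gene did not pass (limma, adjusted p = 0.792). UBE2R2 had -0.65 ± 0.26 for IN against OUT (adjusted p = 0.588), UBE2E2 -0.53 ± 0.23 for IR against OUT (adjusted p = 0.681) and UBE2D3 -0.21 ± 0.10 (adjusted p = 0.69). None of these differences held after adjustment over all probesets.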

How the data were processed

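Ileal RNA of 54 piglets (3 treatments, 3 days, 6 piglets a group) was hybridised to GeneChip Porcine Genome arrays. The values, as deposited by the authors, are log2 signals from GCOS 1.2 and gcRMA, and were used unchanged; gcRMA includes quantile normalization, so a shift common to all genes is removed. The array does not give read depth, and the number of piglets limits the precision. Of 24123 probesets 66 controls were left out and 24057 tested; 10099 carry 1 symbol, 198 several and 13760 none.

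Groups and replicate numbers came from the labels, which leave 2 arrays of day 56 unnumbered and do not name the 3 runs of the methods. limma 3.58.1 (R 4.3.3) was fitted per day on 18 arrays, and over 54 arrays and 9 groups for age and interaction, without a block; p-values were adjusted by Benjamini-Hochberg over all probesets. Exact permutation tests were two-sided over 924 splits of 12 piglets. The fits were tested on simulated data. Deviations of same-numbered arrays had correlations of -0.48 to 0.68, with medians of 0.03, 0.09 and 0.01 at days 5, 28 and 56. For arrays of different numbers the medians were -0.02, -0.03 and -0.04. The numbers were not taken as pairs in the main fit, whereas the paper used replicate as a block.

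Genes named are the catalytic subunits, the members of smallest p in each treatment comparison (3), age comparison (5 a direction) and the interaction (3), and the 3 widest in spread; others were named to describe a role or a count. Members, lists and rules were chosen with earlier results of these data known. Alternatives were weights per array, a filter on dim probesets, array medians centred, a repeated quantile normalization, a trended prior variance, the mean of all probesets, other fits, blocks and leaving out each array; leaving out IR day 5 replicates 1 and 2 together was added after seeing the data.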

Additional observations from a re-analysis of the deposited data

Results flagged for a closer look

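Among the 279 groups of 6 piglets formed by 31 named members, 12 had a piglet whose gap to the nearest other exceeded Dixon's critical share of the group's range, where chance gives about 1 in 20. OUT day 5 replicate 3, the array low in enterocyte signal, gave 3 of them: UBE2D3 at 10.17 and UBE2H at 10.19 were the highest of their group and UBE2E3 at 9.59 the lowest. Without that array UBE2E3 still fell between day 5 and day 28 (by 0.35 on the log2 scale).

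The proteasome gene PSMD4 was lowest in IN day 28 replicate 3 (9.98), 1 of the piglets with a low proteasome mean, and in OUT day 56 replicate 6 (8.42). UBE2R2 was lowest in OUT day 5 replicate 6 (6.15) and highest in OUT day 28 replicate 2 (7.14). UBE2G2 was highest in IR day 56 replicate 1 (7.86), and UBE2E3 in the unnumbered IR array of day 56 (10.96). At day 5 UBE2A was highest in IN replicate 1 (10.08), UBE2K lowest in IN replicate 6 (8.04) and UBE2O lowest in IR replicate 1 (6.71).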

How the results depend on the processing

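Under no alternative was a member called in a treatment comparison by the study's criterion, or in the interaction by the adjusted p. Calls by the adjusted p in treatment comparisons were counted for the main fit only. When 1 array was left out, the median over the proteasome genes turned its sign for IN against OUT at day 28 (-0.12 to 0.11) and for IR against OUT at day 56 (-0.07 to 0.17), and kept it in the other 7 treatment comparisons. By the study's criterion 3 members were called for day 28 against day 5 and 0 for day 56 against day 28. Of all 24057 probesets it called 904 higher and 937 lower for the first, and 271 higher and 223 lower for the second. By the adjusted p, 7 members were called for day 56 against day 28, 16 with array medians centred and 19 with array weights. The cause was not tested. Of all probesets 2846 were higher and 2779 lower in the main fit, and 2024 and 3881 with medians centred. Leaving out each array in turn gave 32 to 38 members for day 28 against day 5 and 6 to 14 for day 56 against day 28. With the mean of all probesets of a gene, UBE2L3 for IN against OUT at day 56 turned to -0.10 and UBE2A for day 56 against day 28 to -0.054, neither called. A replicate block by label number dropped the unnumbered arrays. It gave 35 members for day 28 against day 5 and 6 for day 56 against day 28. No treatment call was made by the study's criterion. The shares of all probesets with array weights, with a block or with an array left out are not given.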
